A study of Homo sapiens with 4 samples.

Results

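Expression of 10 inflammatory genes, PTGS2, IL6, IL1A, IL1B, LIF, CXCL8, CXCL1, CXCL2, CXCL3 and CCL2, was followed in wild type and EED-knockout Daoy cells, library by library. Daoy is an established human medulloblastoma line, and EED belongs to Polycomb repressive complex 2, the enzyme complex that methylates H3K27 at silenced genes. Total RNA was sequenced from 2 libraries labelled wild type and 2 labelled EED-knockout, with no treatment named in the labels. How EED was disrupted, from what clones, and if paired libraries are separate cultures are points not given in the sources used here, so the spread between libraries may be technical. The 10 genes, of 58174 in the files, are known targets of the transcription factor NF-kB and were chosen by their measured values in these same libraries. Their levels and fold changes are therefore given as a description, without a test.

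NF-kB dimers are held in the cytoplasm by IkB proteins until a signal, such as IL-1 or TNF binding its receptor, activates the IKK kinase and frees them to enter the nucleus. Among their targets are secreted proteins that act on neighbouring cells, and IL-1 itself closes a feed-forward loop in many tumor cell lines. PTGS2 encodes cyclooxygenase-2, the inducible enzyme that commits arachidonic acid to prostaglandin synthesis. CXCL8, CXCL1, CXCL2 and CXCL3 encode neutrophil-attracting chemokines, CCL2 a monocyte-attracting one, IL1A and IL1B the IL-1 cytokines, and IL6 and LIF cytokines that signal through the shared receptor subunit gp130.

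The promoters of CXCL8 and CXCL1 are shown because these genes had the widest gaps between the EED-knockout libraries, those of CXCL2 and CXCL3 as close relatives of CXCL1, and those of IL6 and PTGS2 for contrast, since EED-knockout 2 lay within the wild type range for IL6 and level with EED-knockout 1 for PTGS2. Each is the 250 bases before the RefSeq start of the gene, 5′ to 3′ on the strand of the gene, from RefSeq on GRCh38.p14. The gene spans given further on are those of GENCODE 29, whose starts can differ. The IL6 window lies inside the GENCODE span of IL6. The windows of CXCL8, CXCL2, CXCL3 and PTGS2 reach into the GENCODE spans of their genes. Capitals mark matches to an NF-kB motif, to GGAATTTCC, to the AP-1 motif TGANTCA or to TATAAA, searched on both strands, and joined capitals hold overlapping matches. The windows are chr4:73740319-73740568 on the plus strand for CXCL8, chr4:73869143-73869392 on the plus strand for CXCL1, chr4:74099196-74099445 on the minus strand for CXCL2 and chr4:74038690-74038939 on the minus strand for CXCL3. IL6 is at chr7:22726950-22727199 on the plus strand, and PTGS2 at chr1:186680424-186680673 on the minus strand.
CXCL8: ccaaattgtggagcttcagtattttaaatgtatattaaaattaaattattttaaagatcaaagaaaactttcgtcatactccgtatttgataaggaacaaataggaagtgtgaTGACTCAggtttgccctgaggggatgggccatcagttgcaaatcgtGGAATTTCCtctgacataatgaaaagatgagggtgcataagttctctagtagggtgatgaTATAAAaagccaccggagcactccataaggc
CXCL1: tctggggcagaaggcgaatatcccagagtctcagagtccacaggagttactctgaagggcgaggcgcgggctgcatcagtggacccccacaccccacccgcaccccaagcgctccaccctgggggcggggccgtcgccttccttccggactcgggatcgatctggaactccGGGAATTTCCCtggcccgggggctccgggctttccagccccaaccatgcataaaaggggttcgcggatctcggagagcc
CXCL2: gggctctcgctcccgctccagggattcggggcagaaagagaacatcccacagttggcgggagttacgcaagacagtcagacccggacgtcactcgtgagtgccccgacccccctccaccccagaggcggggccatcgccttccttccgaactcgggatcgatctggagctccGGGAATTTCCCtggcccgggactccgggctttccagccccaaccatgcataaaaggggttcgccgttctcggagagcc
CXCL3: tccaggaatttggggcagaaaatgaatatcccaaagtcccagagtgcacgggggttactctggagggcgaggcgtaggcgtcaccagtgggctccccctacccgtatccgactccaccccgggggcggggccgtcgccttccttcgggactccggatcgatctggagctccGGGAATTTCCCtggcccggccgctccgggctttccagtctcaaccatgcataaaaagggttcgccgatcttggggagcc
IL6: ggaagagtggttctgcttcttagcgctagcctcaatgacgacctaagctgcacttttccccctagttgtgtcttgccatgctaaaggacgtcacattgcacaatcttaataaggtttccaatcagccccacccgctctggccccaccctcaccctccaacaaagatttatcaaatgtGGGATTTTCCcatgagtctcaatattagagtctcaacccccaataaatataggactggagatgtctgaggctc
PTGS2: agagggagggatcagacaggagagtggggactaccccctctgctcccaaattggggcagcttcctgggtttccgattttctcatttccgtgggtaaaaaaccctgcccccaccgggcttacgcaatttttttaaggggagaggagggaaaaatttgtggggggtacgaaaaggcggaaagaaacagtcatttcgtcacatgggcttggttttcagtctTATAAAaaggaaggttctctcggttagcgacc

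The 3 neighbouring chemokines CXCL1, CXCL2 and CXCL3 carried the run GGAATTTCC at nearly the same place, 78 to 70 bases before the start in CXCL1 and CXCL3 and 77 to 69 in CXCL2, and CXCL8 carried it 91 to 83 bases before. The run was picked after the sequences were seen, and 0.413% of 35116 RefSeq promoters of the same length held it. An NF-kB motif, GGG followed by a purine, any 2 bases, 2 pyrimidines and CC, matched CXCL1, CXCL2, CXCL3 and IL6, where it lay 73 to 64 bases before the start, and 9.96% of all promoters. In CXCL1, CXCL2 and CXCL3 this match overlaps the run. TGANTCA was found in CXCL8 and IL1A and in 6.57% of promoters, TATAAA in PTGS2, CXCL8 and IL1A and in 10.7%, and the cyclic AMP response element TGACGTCA in 0 of the matched genes and in 1.65%. CXCL1 and CXCL3 were the closest pair, identical at 81.4% of aligned positions, against at most 45.4% between CXCL8 and the other 3. Promoter entries matched 8 of the 10 genes, all but LIF and CCL2. A match describes the letters only and does not show binding. The patterns are strict, so the lack of a match, as in PTGS2 for NF-kB, does not show that a site is absent.

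The libraries held 17836112 to 19106382 estimated counts. The EED transcript was at 34.5 and 27.7 CPM (counts scaled to library size with TMM factors) in wild type against 17.9 and 26.2 in EED-knockout, a log2 difference of -0.49 ± 0.27 (SE; edgeR adjusted p = 0.878). Granule neuron lineage markers summed to 68.9 to 78.4 CPM, nearly all of it from ZIC1, ZIC2, PAX6 and MEIS1. ATOH1 was at 0 in all 4 libraries, and BARHL1 and NEUROD1 had at most 8 and 5 counts in any library. Across all 18349 genes that passed the count filter, edgeR called 0 (0.00%) between genotypes at an adjusted p under 0.05, while 1082 had an unadjusted p under 0.05, DESeq2 called 68 and limma-trend on log2 TPM (length-scaled abundance) 0. Without EED-knockout 1 edgeR called 23 genes and without wild type 2 it called 19. All 10 inflammatory genes passed the filter.

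The members fell into 3 patterns in CPM. PTGS2 was lower and CCL2 higher in both EED-knockout libraries than in both wild type libraries. The CXC chemokines and the IL-1 genes instead split the EED-knockout libraries, with EED-knockout 2 below both wild type libraries in all 6 and EED-knockout 1 above both in all but IL1A. IL6 and LIF were highest in EED-knockout 1, with EED-knockout 2 in or just below the wild type range. In bulk RNA, fewer cells expressing a gene and less RNA per cell cannot be told apart.

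PTGS2 (ENSG00000073756, chr1:186671791-186680427, minus strand) was counted 2213 and 1937 times in wild type 1 and 2, against 1156 and 1133 in EED-knockout 1 and 2. This was 122 and 107 CPM against 60.9 and 60.5 CPM, or 114.5 ± 10.4 in wild type against 60.7 ± 0.239 in EED-knockout (SD, n = 2 each). Both EED-knockout libraries lay below both wild type libraries, at 0.532 and 0.529 of the wild type mean, and the fitted log2 fold change was -0.91 ± 0.19 (SE). The EED-knockout pair differed by 1.01-fold, the smallest gap among the 10 genes. Of all tested genes, 18.0% had both EED-knockout libraries below both wild type libraries, and PTGS2 was the single member that did. In TPM, which also divides by transcript length, PTGS2 stood at 41.0 and 40.9 in wild type against 23.0 and 26.6 in EED-knockout.

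CXCL8, interleukin-8, showed the widest split (ENSG00000169429, chr4:73740506-73743716, plus strand). It had 3438 and 2922 counts in wild type, 9015 in EED-knockout 1 and 837 in EED-knockout 2, which is 189 and 162 CPM against 475 and 44.7 CPM. EED-knockout 1 was thus 2.71-fold above the wild type mean of 175 ± 19.6 CPM (SD, n = 2), EED-knockout 2 was 3.92-fold below it, and the EED-knockout libraries were 10.6-fold apart. The EED-knockout mean, 260 ± 304 CPM (SD, n = 2), was above wild type although 1 of its 2 libraries was below both wild type libraries. The fitted log2 fold change of 0.57 had an SE of 0.85.

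CXCL1 (ENSG00000163739, chr4:73869393-73871242, plus strand), a ligand of the same receptor CXCR2, followed CXCL8 in order except that its wild type libraries changed places. It was at 29.7 and 44.1 CPM in wild type, 98.3 in EED-knockout 1 and 11.3 in EED-knockout 2, from 540, 798, 1867 and 211 counts. The EED-knockout libraries stood 8.72-fold apart, at 2.66 and 0.305 of the wild type mean. The log2 fold change was 0.57 ± 0.81 (SE).

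The remaining CXC chemokines were expressed at far lower levels. CXCL2 (ENSG00000081041, chr4:74097035-74099293, minus strand) had wild type counts of 63 and 51 and EED-knockout counts of 108 and 26, or 3.47, 2.82, 5.69 and 1.39 CPM. The 95% exact Poisson interval, which covers counting error only, was 4.67 to 6.87 CPM in EED-knockout 1 and 0.908 to 2.04 in EED-knockout 2, against 2.66 to 4.44 and 2.10 to 3.71 in wild type, and the intervals of the 2 EED-knockout libraries overlapped neither each other nor those of wild type. CXCL3 (ENSG00000163734, chr4:74036589-74038807, minus strand) had wild type counts of 38 and 48 and EED-knockout counts of 57 and 24, which is 2.09, 2.65, 3.0 and 1.28 CPM. Its intervals were 2.27 to 3.89 CPM in EED-knockout 1 and 0.822 to 1.91 in EED-knockout 2, which did not overlap. The interval of wild type 1, 1.48 to 2.87, overlapped both, and that of wild type 2, 1.96 to 3.52, overlapped EED-knockout 1. Log2 fold changes were 0.17 ± 0.65 for CXCL2 and -0.15 ± 0.54 for CXCL3 (SE).

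CCL2 (ENSG00000108691, chr17:34255218-34257203, plus strand) was the most abundant of the 10 in every library, in CPM and in TPM. Its counts were 12145 and 14293 in wild type, against 24392 and 18693 in EED-knockout, or 668 and 790 against 1285 and 999 CPM. Its EED-knockout libraries were both higher than either wild type library, at 1.76 and 1.37 times the wild type mean, with a log2 fold change of 0.65 ± 0.22 (SE). CCL2 was the single member with this order, which 17.9% of all tested genes had. Unlike the CXC chemokines it stayed high in EED-knockout 2, and its EED-knockout libraries were 1.29-fold apart.

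**Figure D1:**
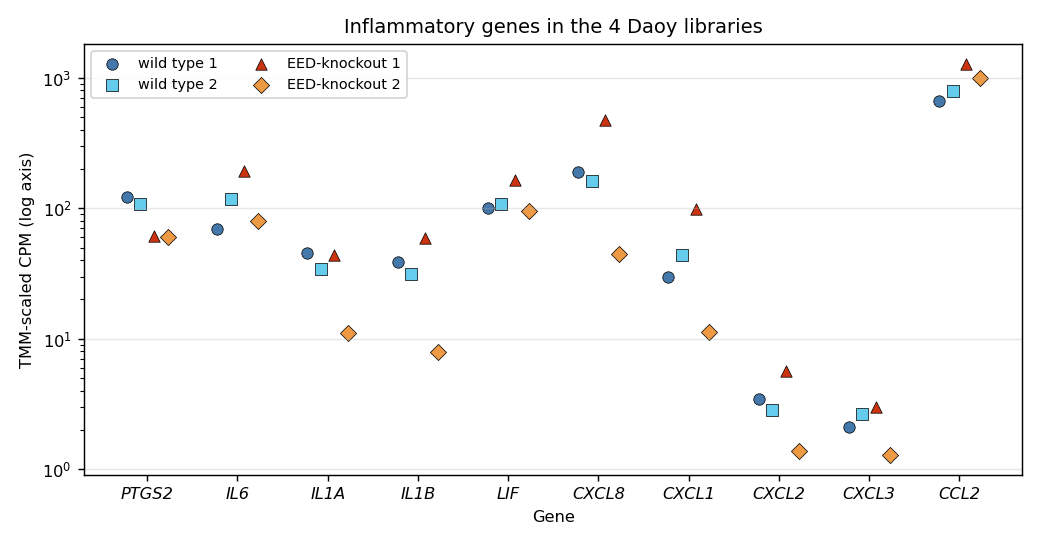
Level of each of the 10 genes in CPM on a log axis, 1 point per library, for wild type 1 and 2 and EED-knockout 1 and 2. The 2 EED-knockout points coincide for PTGS2, at 60.9 and 60.5 CPM, and are farthest apart for CXCL8, at 475 and 44.7 CPM.

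IL1A (ENSG00000115008, chr2:112773915-112784590, minus strand) and IL1B (ENSG00000125538, chr2:112829751-112836903, minus strand) encode ligands of the same receptor and lie next to each other in the genome. IL1B was at 39.0 and 31.2 CPM in wild type, 58.8 in EED-knockout 1 and 7.91 in EED-knockout 2, from 708, 565, 1116 and 148 counts. Its EED-knockout libraries were 7.43-fold apart and straddled wild type, so that the log2 fold change was -0.07 ± 0.74 (SE). IL1A was at 45.1 and 34.1 CPM in wild type, 43.8 in EED-knockout 1 and 11.2 in EED-knockout 2, from 820, 616, 832 and 209 counts. Here EED-knockout 1 lay within the wild type range in CPM, EED-knockout 2 was at 0.282 of the wild type mean, and the log2 fold change was -0.53 ± 0.55 (SE). In TPM IL1A was highest in EED-knockout 1, at 36.3, against 33.1 and 28.0 in wild type and 9.45 in EED-knockout 2.

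IL6 and LIF are both gp130 ligands. IL6 (ENSG00000136244, chr7:22725884-22732002, plus strand) was at 69.96 and 118 CPM in wild type, 191 in EED-knockout 1 and 79.7 in EED-knockout 2, from 1271, 2139, 3634 and 1492 counts. EED-knockout 2 lay between the wild type libraries, which were themselves 1.69-fold apart, and the log2 fold change was 0.53 ± 0.43 (SE). LIF (ENSG00000128342, chr22:30240447-30246851, minus strand) was at 100.1 and 107 CPM in wild type, 165 in EED-knockout 1 and 94.5 in EED-knockout 2, from 1819, 1937, 3135 and 1769 counts. Its EED-knockout libraries were 1.75-fold apart around a narrow wild type pair, with a log2 fold change of 0.33 ± 0.28 (SE). In TPM LIF in EED-knockout 2, at 42.76, lay between the wild type libraries, at 42.85 and 42.12. IL6 and LIF are the members that overlap annotated genes on the opposite strand, IL6 with STEAP1B (143 to 204 counts) and AC073072.1 (20 to 66), LIF with LIF-AS1 (3 to 8) and AC004264.1 (19 to 60). The sources used here do not say if the libraries keep strand, so reads of such partners cannot be told apart. In 3 of the 4 libraries the estimated counts of IL6 and LIF did not sum to a whole number within 0.1 counts, as those of the other 8 genes did in every library.

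Read together, the 10 genes had the same order between the EED-knockout libraries and hardly any shared order between genotypes. EED-knockout 1 exceeded EED-knockout 2 in 10 of 10 by CPM (PTGS2 by 1.01-fold; in TPM PTGS2 was higher in EED-knockout 2), against 9131 of all 18349 tested genes. It did so by more than 2-fold in 7 of 10, where 7.29% of tested genes passed that fold, and the median log2 difference was 1.61 against -0.00 over all tested genes. The wild type libraries were more than 2-fold apart in 0 of 10, against 8.64% of tested genes. EED-knockout 1 was highest and EED-knockout 2 lowest in 6 of 10 by CPM (IL1B, LIF and the 4 CXC chemokines), an order that 11.6% of tested genes had. Since the members were chosen from these libraries, these counts describe the list and are not evidence about it. Between genotypes, 8 of 10 overlapped in CPM and likewise in TPM, and the other 2 stand beside the 17.9% and 18.0% of tested genes with both EED-knockout libraries above or below. The median log2 fold change was 0.25 against 0.01 over all tested genes, with 6 of 10 above 0.

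Other cell types' markers were read beside this split. Summed leukocyte markers were at 1.16 and 1.44 CPM in wild type against 2.38 and 1.45 in EED-knockout, with CD3E of the 7 at 0 in all libraries. The 4 endothelial markers summed to 3.37 and 5.44 CPM in wild type, 98.0 in EED-knockout 1 and 1.18 in EED-knockout 2, none of them at 0 throughout. KDR alone made 93.9 CPM of the sum in EED-knockout 1 (1782 counts, against 34, 16 and 7 in the others), CDH5 had 42 counts there (3, 6 and 1 elsewhere), and PECAM1 and VWF were highest in another library. Fibroblast markers summed to 1960, 2890, 2950 and 3040 CPM, of which COL1A1 was 1924, 2840, 2911 and 3026. The other 4, COL3A1, PDGFRB, LUM and DCN, were higher in EED-knockout 1 than in EED-knockout 2, by 4.83-, 3.52-, 2.13- and 1.97-fold, but in none of them was EED-knockout 1 the highest library. Over the 5 fibroblast markers the median log2 difference between the EED-knockout libraries was 1.05. The part of these transcripts in the members' levels was not tested.

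Leaving out a library showed how far each fold change rested on it. Without EED-knockout 1, 9 of the 10 log2 fold changes were below 0, CXCL8 at -1.97, CXCL1 at -1.71, IL1A at -1.82 and IL1B at -2.15, and CCL2 alone stayed above, at 0.46. Without EED-knockout 2, 9 of 10 were above 0, CXCL8 at 1.43, CXCL1 at 1.41, IL6 at 1.02 and IL1B at 0.74. PTGS2 was below 0 in every such fit, from -1.01 to -0.82, and CCL2 above 0 in every one, from 0.46 to 0.81. These signs follow from the lack of overlap between genotypes given above for both genes, and add no separate evidence. For the other 8 genes the sign of the EED-knockout difference therefore depended on which library was kept.

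**Figure D2:**
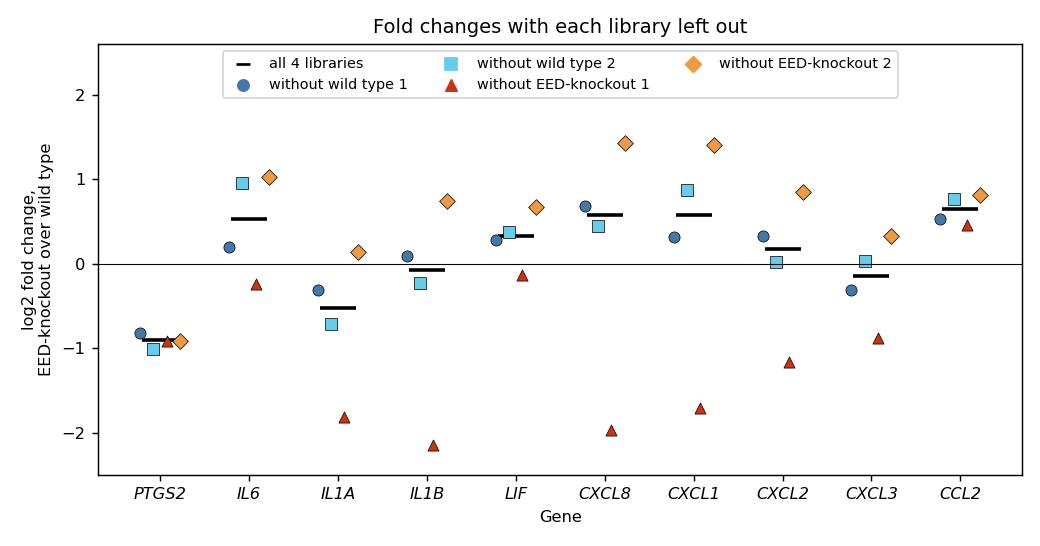
Log2 fold change of EED-knockout over wild type for each gene, with bars for the fit of all 4 libraries and points for fits that leave out 1 library. PTGS2 stays between -1.01 and -0.82 and CCL2 between 0.46 and 0.81, while CXCL8 runs from -1.97 without EED-knockout 1 to 1.43 without EED-knockout 2.

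Per transcript length, the order of the genes could be compared. In the wild type mean TPM, CCL2 led at 2068, then CXCL8 at 192 and IL6 at 170, CXCL1 at 65.5, LIF at 42.5, PTGS2 at 40.9, IL1B at 34.8, IL1A at 30.5, CXCL2 at 4.47 and CXCL3 at 3.88. IL6, at 115 and 225 TPM, spanned CXCL8, and CXCL3, at 3.13 and 4.64, overlapped CXCL2, so those neighbours did not differ beyond their spread. In EED-knockout 1 CXCL8 reached 564 TPM and PTGS2, at 23.0, stood below IL1B, at 63.4, and IL1A, at 36.3. In EED-knockout 2 IL6, at 150.5 TPM, stood above CXCL8, at 54.8, and PTGS2, at 26.6, above CXCL1, at 23.4.

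A single main transcript held most of the counts of each gene in every library. The main PTGS2 transcript held 92.8% to 97.8% of the counts of its gene, that of CXCL8 96.7% to 98.5%, that of CCL2 94.3% to 96.0% and that of IL1B 96.9% to 100%. CXCL1 was similar, with 93.8% and 95.1% in wild type against 95.6% and 88.0% in EED-knockout. IL6 was the most divided, with 69.4% to 77.3% in its main transcript and 4.62%, 10.3%, 11.4% and 9.24% in its pair of retained-intron transcripts. IL1A has a single listed transcript.

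The genes around the members were drawn from 10 lists, the machinery, targets and receptors of NF-kB, IL-1, prostaglandins and chemokines, with 101 of 125 listed genes tested once the members are left out. edgeR called 0 of the 101 at an adjusted p under 0.05, and so did DESeq2, limma-trend and every other fit made; 9 had an unadjusted p under 0.05, 4 higher and 5 lower in EED-knockout, and the smallest adjusted p was 0.799. Their median log2 fold change was 0.00, with both EED-knockout libraries above wild type in 17 and below in 21, near the 17.9% and 18.0% of all tested genes. EED-knockout 1 was more than 2-fold above EED-knockout 2 in 16 of them, against 7.29% of all tested genes, and more than 2-fold below in 8, against 6.55%.

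Of the 5 NF-kB subunits, 0 were called, and EED-knockout 1 was above EED-knockout 2 in all 5, by a median log2 difference of 0.17. Both EED-knockout libraries were above both wild type libraries in 3 (RELA, REL and NFKB2), against 17.9% of all tested genes. Both were below in 0, against 18.0%. RELA, the transactivating subunit of the classical dimer, was at 75.5 and 70.2 CPM in wild type against 95.3 and 84.8 in EED-knockout. RELB, of the alternative pathway, was at 46.1 and 46.6 against 63.0 and 31.3, the largest gap between the EED-knockout libraries in this list. NFKB1, whose p50 pairs with RELA, was at 71.4 and 50.6 against 58.9 and 54.6.

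Of the 10 inhibitors and feedback genes, 0 were called, and 8 were higher in EED-knockout 1 than in EED-knockout 2, with a median log2 difference of 0.56. NFKBIA, which encodes IkB-alpha and is itself induced by NF-kB, was at 161 and 147 CPM in wild type, 198.5 in EED-knockout 1 and 135 in EED-knockout 2. TNFAIP3, the A20 feedback inhibitor, was at 118.5 and 107 against 148 and 61.7, and NFKBIZ, the nuclear IkB-zeta needed for IL6 induction, at 43.7 and 68.0 against 81.1 and 31.6. Both gaps were over 2-fold between EED-knockout libraries and in the direction of the members.

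Among IKK kinases and adaptors, 19 tested, edgeR called 0. TNFRSF1A, the main TNF receptor, was at 69.5 and 81.5 CPM in wild type against 98.9 and 110.4, a log2 fold change of 0.47 ± 0.19 (SE; edgeR adjusted p = 0.834). TAB1, a partner of the TAK1 kinase, was at 18.7 and 19.1 against 27.7 and 26.3 (0.52 ± 0.21; adjusted p = 0.834). Of the 19 genes, 0 were more than 2-fold higher in EED-knockout 1, against 7.29% of all tested genes, and 1 was more than 2-fold higher in EED-knockout 2. This was TLR3, a receptor for double-stranded RNA, at 3.36 and 4.92 CPM in wild type against 1.17 and 7.38, named after its values were seen.

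Of 21 other tested NF-kB targets edgeR called 0. EED-knockout 1 was more than 2-fold above EED-knockout 2 in 8, against 7.29% of all tested genes, and more than 2-fold below in 4, against 6.55%. The wild type libraries were themselves more than 2-fold apart in 7 of these 21, against 8.64%, so the list varied in both directions and within wild type. TNF was at 7.43 and 8.02 CPM in wild type against 18.2 and 4.12, CSF2, which encodes GM-CSF, at 29.5 and 30.4 against 42.5 and 13.3, and PTX3, a secreted pattern-recognition protein, at 57.5 and 63.8 against 183 and 45.9. These follow the chemokines in the order of the libraries. VCAM1, an adhesion molecule, was at 3.74 and 21.3 CPM against 65.6 and 3.26, but its wild type libraries also stood apart. The reverse order was seen in IL11, a gp130 cytokine, at 32.0 and 38.8 against 18.9 and 59.2. CSF3, which encodes G-CSF, was lower in both EED-knockout libraries, at 3.63 and 8.46 against 0.685 and 2.99. TNF, CSF2, VCAM1, IL11 and CSF3 were named after their values were seen. SOD2, the mitochondrial superoxide dismutase and the most abundant of the list, was at 700.0 and 807.5 CPM against 681 and 330, and BIRC3, an inhibitor of apoptosis, at 66.5 and 54.2 against 45.8 and 34.6 (log2 fold change -0.59 ± 0.23; edgeR adjusted p = 0.808). SAA1, an acute-phase protein whose reads are divided with its near-identical copy SAA2 and are therefore uncertain, was at 1.97 and 4.65 CPM against 0.263 and 0.947 (-2.42 ± 0.74; edgeR adjusted p = 0.799).

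**Figure D3:**
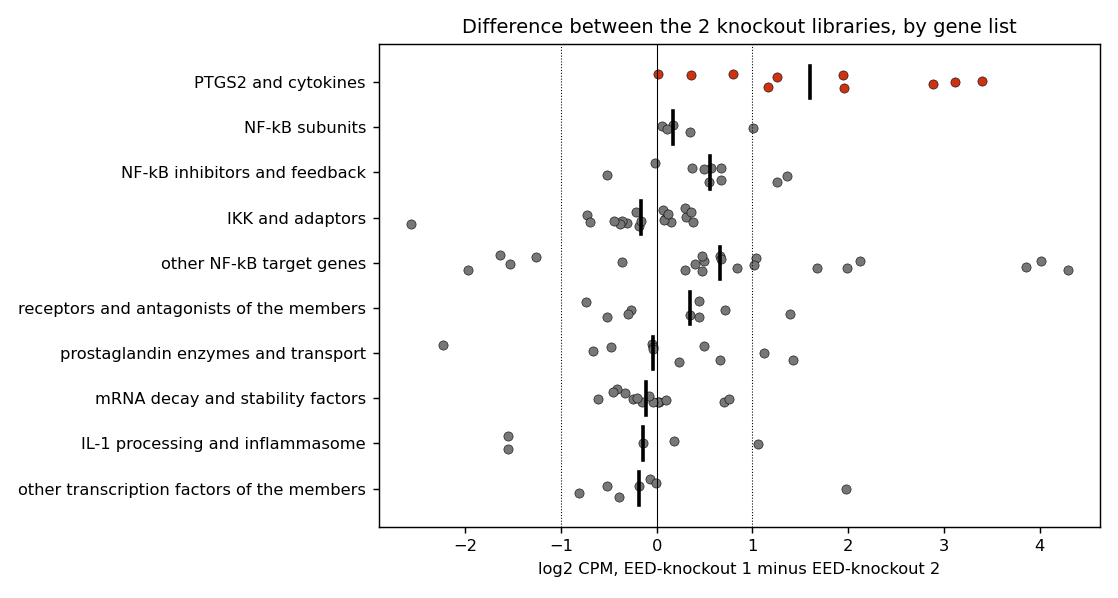
Log2 difference of EED-knockout 1 minus EED-knockout 2 for each tested gene, by list, with a bar at the median of the list. The members run from 0.01 for PTGS2 to 3.40 for CXCL8 with a median of 1.61. The inhibitors, targets, subunits and receptors have medians of 0.56, 0.66, 0.17 and 0.35. Medians lie below 0 for the IKK (-0.16), prostaglandin (-0.04) and mRNA decay (-0.12) lists. They also do for the IL-1 processing (-0.14) and other transcription factor (-0.18) lists.

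In the prostaglandin pathway, 0 of 11 tested genes were called, with 1 of unadjusted p under 0.05 higher and 2 lower. PLA2G4A, the phospholipase that frees arachidonic acid for cyclooxygenase-2, was at 43.3 and 43.9 CPM in wild type against 30.2 and 31.4 in EED-knockout, a log2 fold change of -0.50 ± 0.19 (SE; edgeR adjusted p = 0.808). Like PTGS2, which lies beside it on chromosome 1, it was lower in both EED-knockout libraries with little gap between them. PTGES3, at 602 and 465 CPM against 444 and 457, and CBR1, at 68.8 and 65.4 against 56.9 and 58.6, had this order too. In this list 4 genes had both EED-knockout libraries below both wild type libraries and 3 had both above. The shares of all tested genes were 18.0% and 17.9%. PTGES, an inducible prostaglandin E synthase named after its values were seen, was at 3.80 and 10.3 CPM against 2.53 and 12.2 and did not follow PTGS2. SLCO2A1, the prostaglandin uptake transporter, was at 21.2 and 37.6 against 70.4 and 44.6 (0.97 ± 0.34; adjusted p = 0.808), and AKR1C3, a prostaglandin F synthase, at 0.826 and 1.38 against 0.474 and 0.160 (-1.78 ± 0.75; adjusted p = 0.843).

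Receptors for the secreted members were unevenly present. The receptors of the CXC chemokines were near 0, CXCR1 at 0.0302 TPM in wild type 1 and 0 elsewhere and CXCR2 at 0.0298 to 0.214, and CCR2, the CCL2 receptor, was at 0 in all 4 libraries. IL6ST, gp130, was at 62.8 and 80.9 TPM in wild type against 67.8 and 70.1 in EED-knockout. LIFR was at 3.18 and 3.47 against 5.98 and 5.69, IL6R at 2.05 and 3.25 against 3.32 and 4.57, and IL1R1 at 4.23 and 5.33 against 6.60 and 3.47. PTGER2, a prostaglandin E2 receptor, was at 1.16 and 1.60 TPM against 3.15 and 4.10, a log2 fold change of 1.28 ± 0.39 (SE; edgeR adjusted p = 0.799), and PTGER4, the other cyclic AMP-coupled receptor, at 3.80 and 3.28 against 5.69 and 2.13. Of 9 tested receptors and antagonists edgeR called 0.

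**Figure D4:**
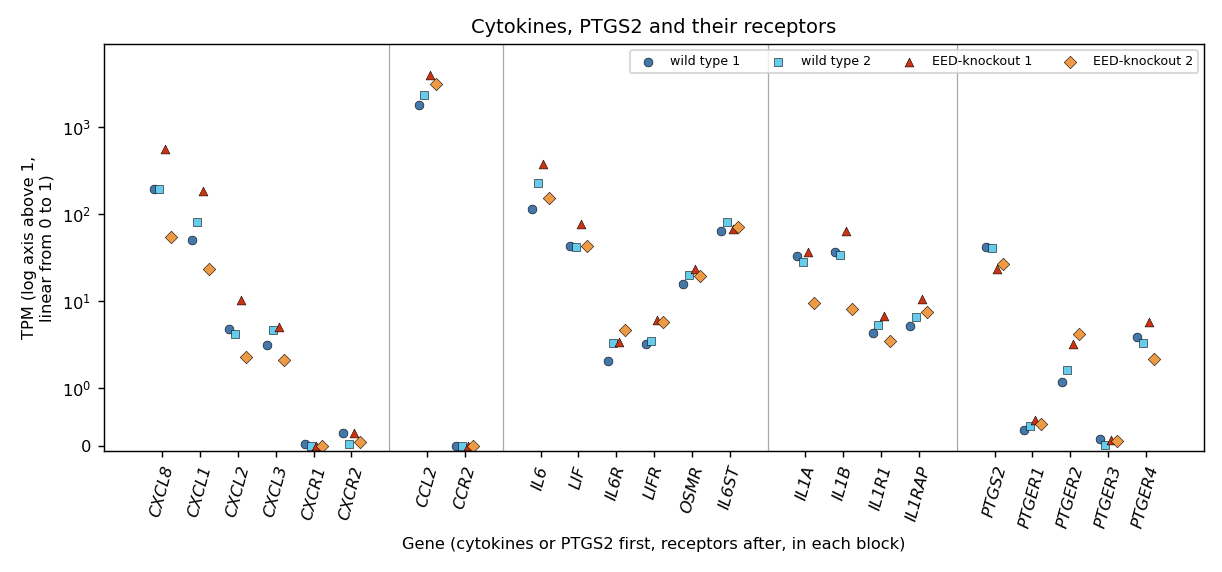
TPM of the ligand genes and PTGS2, each followed by its receptors, 1 point per library, on an axis that is linear from 0 to 1 and logarithmic above. The ligands CCL2 and CXCL8 reach 3937 and 564 TPM, while CXCR1, CXCR2 and CCR2 stay at 0.214 TPM or below in all 4 libraries.

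In the smaller lists no gene was called by edgeR either. CASP1, the protease that activates IL-1-beta, was at 13.1 and 12.7 CPM in wild type against 1.74 and 5.29 in EED-knockout, a log2 fold change of -1.87 ± 0.51 (SE; edgeR adjusted p = 0.799), lower in both EED-knockout libraries, unlike its substrate IL1B. Of the 14 genes listed for mRNA decay and stability, none had EED-knockout libraries more than 2-fold apart. Of all tested genes, 7.29% were more than 2-fold higher in EED-knockout 1 and 6.55% in EED-knockout 2. CEBPD, a transcription factor that binds IL6 and PTGS2 promoters, was at 14.5 and 25.8 CPM against 35.2 and 8.82. It was named by the rule for the pathway lists, but printed alone of its list after the values were seen. Of the 7 tested genes in this list of other transcription factors, EED-knockout 1 was above EED-knockout 2 in 1, CEBPD. The median log2 difference of that list was -0.18. Of the neighbours of the members in their chemokine clusters, CXCL5 had 9 and 11 counts in wild type, 31 in EED-knockout 1 and 0 in EED-knockout 2, where 3 counts are 0.16 CPM, while PF4, PF4V1 and CCL13 had 0 in all libraries. CCL7, next to CCL2, had 9 to 15 counts against the 12145 to 24392 of CCL2.

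The genes most like PTGS2 were sought among 12638 protein-coding genes by the root mean square difference in centred log2 CPM over the 4 libraries, whose median was 0.497. The closest were CH507-42P11.8 (0.0463), PRSS53, a serine protease (0.0613), and CHRNB2, a nicotinic acetylcholine receptor subunit (0.0618). CH507-42P11.8 was at 88.5 and 76.2 CPM in wild type against 43.6 and 46.7 in EED-knockout. CHRNB2 was at 6.39 and 5.09 against 2.95 and 2.78.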

How the data were processed

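RNA-seq of 2 wild type and 2 EED-knockout Daoy libraries was used, grouped by the labels. The authors deposited kallisto 0.43.1 output for hg38, per the submitters' processing notes. Its estimated counts per transcript are deposited unscaled. The TPM column the authors deposited is adjusted for effective length, per the file headers, which also list transcript lengths. For each gene the counts of its transcripts were added and rounded. Positions came from GENCODE 29, which held 57836 of the 58174 genes. The members and all gene lists were chosen with earlier results of these data known.

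All genes were fitted with the quasi-likelihood test of edgeR 4.0.16 in R 4.3.3 (TMM; filterByExpr, minimum count 10 and total 15; no covariate; two-sided; Benjamini-Hochberg, threshold 0.05). The CPM of a gene is its count over the TMM-scaled library size, so 3 counts stood for 0.158 to 0.166 CPM. Log2 differences between libraries used a prior count of 2. Promoters came from RefSeq. From each pathway list the genes named were up to 3 with the highest mean CPM and up to 2 with the smallest unadjusted p in each direction, not all of which are printed; other list genes were added after their values were seen. Genes most like PTGS2 were protein-coding non-members with mean log2 CPM above 1. Alternatives were other size factors and filters, length-scaled TPM counts, DESeq2 1.42.0, limma-trend 3.58.1 on log2(TPM + 1) and log2(TPM + 0.1), a replicate block and leaving out each library. The fits were checked on simulated data.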

Additional observations from a re-analysis of the deposited data

How the results depend on the processing

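With 4 libraries, the fold change of a gene whose EED-knockout libraries disagree has a wide error, and CXCL2 and CXCL3, at 24 to 108 counts per library, carry more counting error than the other 8. Across 14 alternatives the log2 fold changes of PTGS2 and CCL2, whose genotypes did not overlap in CPM or TPM, kept their sign. CXCL8 took the other sign under 5 of them, CXCL1 and CXCL2 under 3, IL1B and CXCL3 under 2, and IL6, IL1A and LIF under 1. The number of members above 0 was 6, and 1 to 9 when a library was left out (1 without EED-knockout 1). With the replicate number as a block it was 3, and 3 with the numbers crossed, a pairing added after seeing the data. Same-numbered libraries did not deviate together (r = -0.14 across 18349 genes, which are not independent). With 1 difference between libraries per genotype, this cannot decide if the numbers mark a pairing, which the labels do not state. The block moved the genes of unadjusted p under 0.05 from 1082 to 768, and the crossed block to 1607. Genes called numbered 0 with edgeR under other size factors, filters and the blocks, 68 with DESeq2 (26 higher, 42 lower) and 0 to 23 with a library left out (0 to 15 higher, 0 to 10 lower). Pathway genes called numbered 0 under every alternative. The cause of these changes was not tested. Fits that leave 1 library out also hold fewer libraries, and in them the lone library is assumed to vary like the other genotype.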
